A study of Mus musculus with 18 samples.

Results

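The genes described here make, break down or bind hyaluronan in mouse back skin: 10 of the 32285 gene rows in the 10 mRNA matrices. They are Has1, Has2 and Has3 (synthesis), Cemip, Hyal1 and Hyal2 (breakdown), Tnfaip6 and Vcan (binding partners in the matrix), and Cd44 and Lyve1 (cell-surface receptors). They were chosen by symbol, with earlier results of these data known, so a count of members past a threshold is a description and is given beside the share of all genes past the same threshold.

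The study asked how skin cells respond to stretch. Every mouse had surgery, with an incision near the tail and a path opened beneath the back skin towards the neck. Expanded mice then received a hydrogel expander under the skin, and control mice received none, so the control arm carries the wound and the expanded arm carries the wound, the implant and the stretch together. Skin was taken on day 1, 2 or 4, digested and sorted for live cells that exclude the dye DAPI, and the mice of an arm in a sequencing round were pooled into 1 library. The control and the expanded arm have 5 libraries each, in 5 pairs that share a day and a round; days 1 and 2 have 2 pairs each, and day 4 has 1. Hashing antibodies, which tag the cells of each mouse, gave values for 28 mice from 8 of the libraries. Strain, sex and age of the mice are not in the labels used here.

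Hyaluronan is a long, unbranched sugar polymer that fills the space between cells. Synthases in the plasma membrane build it from UDP-glucuronic acid and UDP-N-acetylglucosamine and push the growing chain out of the cell, where it holds water and is bound by proteins that set how loose or stiff the matrix is. Large chains are cut at or near the cell surface, the pieces are taken up or drained with the lymph, and lysosomal enzymes finish the breakdown; in skin, dermal fibroblasts and epidermal keratinocytes are both known sources of the polymer.

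The libraries held 17726739 to 75470722 UMIs (unique molecular identifiers, each standing for 1 captured transcript) in genes, with a median of 6440.5 to 12847.5 UMIs a kept cell. Of 55174 barcodes, 45495 cells passed the filters, and 45115 of them fell into 19 classes named from marker lists and written below as "-like". Libraries shared at most 18 barcodes. Levels are given as CPM, the UMIs of a gene per 1000000 UMIs summed over a class in a library, and a difference was called at an adjusted p under 0.05 (edgeR quasi-likelihood test, Benjamini-Hochberg over all genes tested in that class). In 13 classes with enough cells, 76 member tests gave 25 calls in 10 classes; the share of all genes called ran from 0.167% to 30.3% by class. Lists of 5 values are in the order day 1 round 1, day 1 round 2, day 2 round 1, day 2 round 2 and day 4.

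The main source differed from member to member. Fibroblast-like cells held 96.0% of the 112112 Has1 UMIs of the control arm and 92.3% of the 18705 Has1 UMIs of the expanded arm. For Tnfaip6 the fibroblast-like shares were 94.9% and 90.9%, and for Has2 they were 83.0% and 59.97%, with basal keratinocyte-like cells at 4.79% and 22.1%. Cemip UMIs lay in fibroblast-like (78.0% control, 73.1% expanded) and dermal papilla-like cells (12.7% and 22.9%). Lyve1 lay in lymphatic endothelial-like cells (84.5% and 93.9%). Vcan was the member whose main source differed most by arm: fibroblast-like cells held 80.3% of its UMIs in control libraries and 33.6% in expanded ones, and macrophage-like cells 6.08% and 59.1%. Cd44 was spread over classes: dendritic-like (27.8%), macrophage-like (25.7%) and fibroblast-like cells (23.6%) led in control skin, and macrophage-like cells (40.1%) in expanded skin. These shares depend on how many cells of each class a library holds, which also differs between the arms.

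By level, the order of the classes was another one for some members. In control skin Has2 had its highest mean in hair follicle keratinocyte-like cells (72.4 ± 53.1 CPM, SD, n = 4), ahead of fibroblast-like (55.8 ± 20.9 CPM, SD, n = 5) and basal keratinocyte-like cells (44.4 ± 37.6 CPM, SD, n = 5), which lay within each other's spread. The hair follicle class is 1 cluster led by Krt25 and Krt28 together with cell-cycle genes such as Top2a and Cenpf. The part of dividing cells in its levels was not tested. The basal class is 1 cluster whose leading genes include Krt15 and Krt24, and also Krt17 and Lhx2 of the hair follicle marker list. It is therefore not taken for basal cells between the follicles alone. Vcan was highest in dermal papilla-like cells (957 ± 694 CPM, SD, n = 3) before fibroblast-like cells. Hyal1, a lysosomal hyaluronidase, was low everywhere, with basal keratinocyte-like (17.3 ± 11.5 CPM), suprabasal keratinocyte-like (17.1 ± 3.86 CPM) and macrophage-like cells (14.1 ± 6.25 CPM) leading within their spread. Hyal2, a membrane-anchored hyaluronidase, was highest in blood endothelial-like (49.4 ± 9.68 CPM) and lymphatic endothelial-like cells (33.1 ± 9.79 CPM), well above basal keratinocyte-like cells (13.3 ± 1.65 CPM; SD, n = 5 for each of these).

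**Figure D1:**
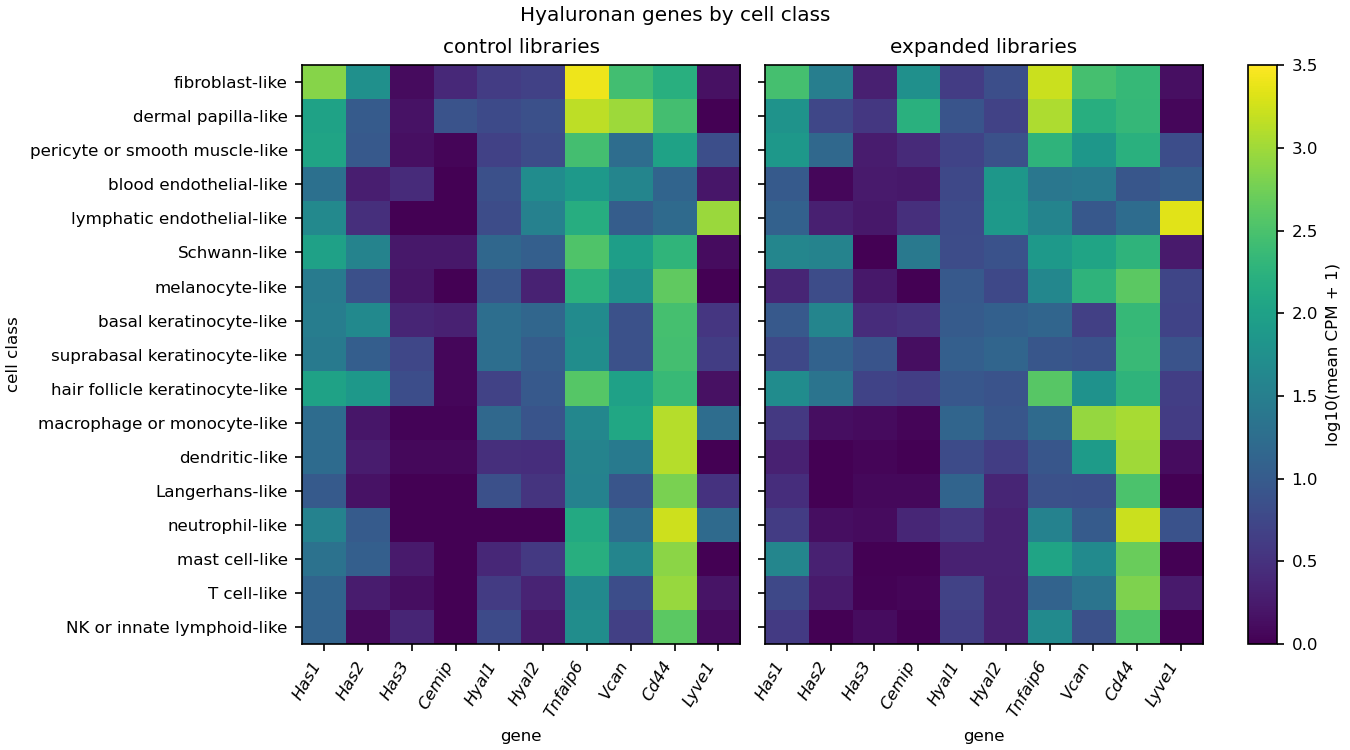
Mean level of the 10 members (columns) in 17 cell classes (rows) of the control and the expanded arm. Values are log10 of mean CPM + 1 over the libraries of an arm. Has1 and Tnfaip6 stand out in fibroblast-like cells, Lyve1 in lymphatic endothelial-like cells, and Cd44 across the immune classes, where neutrophil-like cells have the highest mean.

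In fibroblast-like cells the synthase genes Has1 and Has2 were lower in expanded skin, and Cemip, which encodes a protein needed to cut hyaluronan, was higher. Has1 fell by 1.57 on the log2 scale, Has2 fell by 1.05, Tnfaip6 fell by 0.84 and Cemip rose by 4.61. Of the 10 members tested, 4 were called (3 lower, 1 higher); 30.3% of all 14171 genes tested in this class were called, 15.8% lower and 14.5% higher. The median log2 difference over all genes tested was 0.02. Markers moved with these genes: of 10 fibroblast markers 7 were called lower and 1 higher, and of 10 dermal papilla markers 6 were called higher, their sum running from 69.9 to 249.8 CPM in control and from 253 to 894 CPM in expanded libraries. The part of either in the differences was not tested.

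Has1 (ENSMUSG00000003665, chr17:17843323-17855205, minus strand, build mm10) encodes a hyaluronan synthase. In the control libraries it stood at 812, 658, 709, 571 and 939.6 CPM. The expanded libraries had 379, 383, 303, 196 and 211 CPM. Every expanded library was below every control library, and the gap was widest in the day 4 pair. The means were 738 ± 142 CPM in control and 294 ± 89.0 CPM in expanded skin (SD, n = 5 each), a log2 difference of -1.57 (SE 0.20, edgeR adjusted p 0.000472). After thinning each cell to 2000 UMIs, 52.5% ± 5.58 of control and 27.9% ± 5.70 of expanded fibroblast-like cells had a Has1 UMI. Without thinning the shares were 71.7% and 53.2%; thinning left out 703 of 13359 control and 179 of 3776 expanded cells. In T cell-like cells, which should lack the gene, the thinned shares were 2.42% and 0.280%; the library medians averaged 10243 and 12374 UMIs a fibroblast-like cell and 3637 and 5158 a T cell-like cell.

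Has2 (ENSMUSG00000022367, chr15:56665627-56694539, minus strand) encodes the synthase that mouse embryos need for heart formation. Its fibroblast-like levels were 38.6, 46.3, 90.7, 44.0 and 59.1 CPM in control libraries. In expanded libraries they were 39.8, 23.2, 23.8, 29.2 and 37.3 CPM. The expanded library was the lower one in 4 of 5 pairs, and the arms overlapped through the first day 1 pair. The means were 55.8 ± 20.9 and 30.7 ± 7.63 CPM (SD, n = 5 each), a log2 difference of -1.05 (SE 0.24, edgeR adjusted p 0.0072). Has3, the remaining synthase gene (ENSMUSG00000031910, chr8:106870242-106884566, plus strand), had 183 UMIs in all control cells and 270 in all expanded cells, and its fibroblast-like mean was 0.27 ± 0.23 and 1.05 ± 0.91 CPM (SD, n = 5 each), a difference that was not called (edgeR adjusted p 0.219).

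Cemip (ENSMUSG00000052353, chr7:83932857-84086502, minus strand), also known as KIAA1199 or HYBID, encodes a secreted protein that binds hyaluronan and is needed for its depolymerisation by skin fibroblasts. It was close to absent in control fibroblast-like cells, with 0.80, 2.88, 1.57, 1.2004 and 1.17 CPM. Expanded libraries stood at 8.61, 30.1, 64.4, 51.5 and 127 CPM. The arms did not overlap, the smallest expanded value came from day 1 and the largest from day 4. The means were 1.53 ± 0.81 and 56.3 ± 44.8 CPM (SD, n = 5 each), a log2 difference of 4.61 (SE 0.59, edgeR adjusted p 0.000469). After thinning, 0.356% ± 0.144 of control and 5.19% ± 2.42 of expanded cells had a Cemip UMI (0.850% and 9.41% without thinning), and the thinned share in T cell-like cells was 0% in both arms. Dermal papilla-like cells were not tested, since only 3 control libraries held 20 or more of them and 4 were needed. Those were the control libraries of day 1 round 2, day 2 round 2 and day 4, and all expanded libraries but day 1 round 1. They held 0, 3.12 and 17.2 CPM in control skin and 63.2, 212, 72.1 and 305 CPM in expanded skin.

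Tnfaip6 (ENSMUSG00000053475, chr2:52038009-52056686, plus strand) encodes TSG-6, a secreted protein that moves heavy chains of inter-alpha-inhibitor onto hyaluronan and is known to be induced by inflammatory signals. Its fibroblast-like levels were 2016, 1940.2, 2834, 2754 and 3259 CPM in control libraries. In expanded libraries they were 1178, 1752, 2370.0, 1203 and 1711 CPM. The expanded library was lower in 5 of 5 pairs, although the arms overlapped across days. The means were 2561 ± 566 and 1643 ± 488 CPM (SD, n = 5 each), a log2 difference of -0.84 (SE 0.19, edgeR adjusted p 0.00869). The share of fibroblast-like cells with a Tnfaip6 UMI after thinning was 74.7% in control and 51.0% in expanded libraries, against 8.65% and 1.59% of T cell-like cells.

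The remaining members were not called in fibroblast-like cells. Vcan, which encodes the large proteoglycan versican, averaged 275 ± 69.8 and 291 ± 35.8 CPM (SD, n = 5 each; edgeR adjusted p 0.627). Cd44 averaged 163 ± 11.8 and 222 ± 51.5 CPM (edgeR adjusted p 0.291), with the expanded library higher in 5 of 5 pairs. Hyal1 and Hyal2 averaged under 6 CPM in both arms (edgeR adjusted p 0.376 and 0.121).

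**Figure D2:**
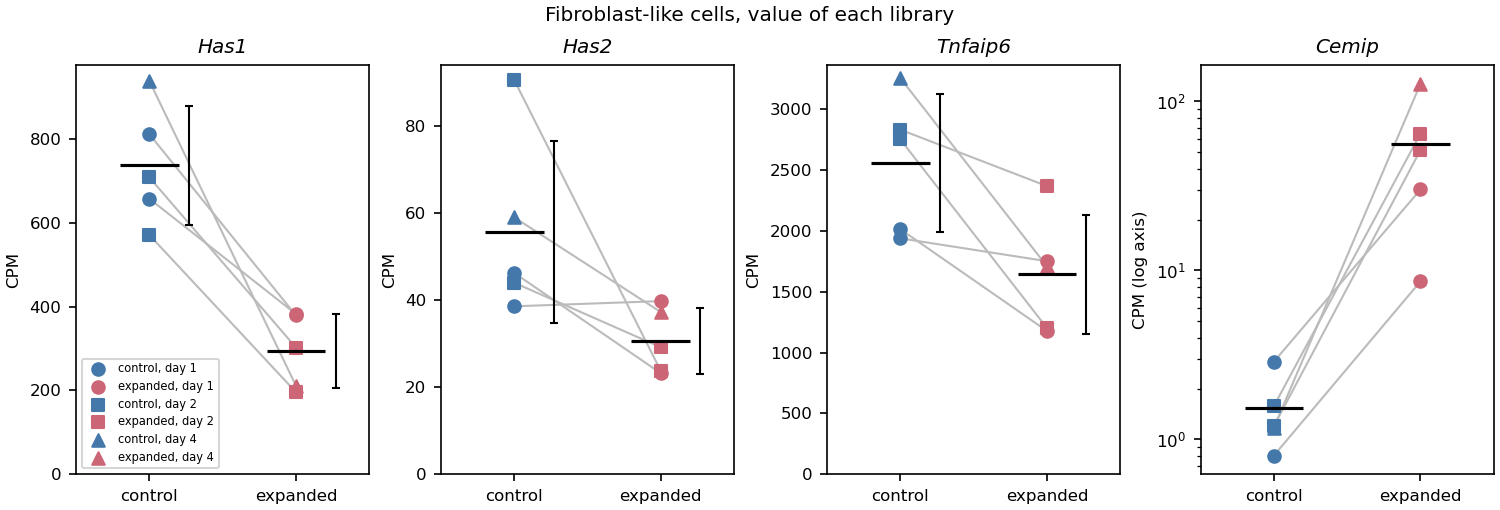
Level (CPM) of Has1, Has2, Tnfaip6 and Cemip in fibroblast-like cells of each library, with control and expanded libraries of the same day and round joined; circles are day 1, squares day 2 and triangles day 4. Black lines are means and bars SD over 5 libraries, the Cemip panel has a log axis and no SD bar, and the arms of Has1 and Cemip do not overlap.

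Values of single mice went the same way for these genes, in a part of the cells. In the libraries with hashing antibodies 37.9% of fibroblast-like cells were assigned to a mouse, against 99.7% of macrophage-like cells. Among 14 control mice with 20 or more fibroblast-like cells, Has1 ran from 552 to 1207 CPM with a median of 667 CPM; among 13 expanded mice it ran from 153 to 549 CPM with a median of 279.5 CPM, below every control mouse. The Cemip medians were 1.48 CPM (0 to 18.2) in control and 47.2 CPM (5.61 to 267) in expanded mice, and the Tnfaip6 medians were 3322 CPM (1856 to 3986) and 1624 CPM (741 to 3323). The 4 control mice of day 4 had Tnfaip6 at 3541 to 3986 CPM, above the level of their whole library. The assigned cells therefore need not stand for the whole class. Mice of a round shared 1 tube, so they are separate animals but not separate library preparations.

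The fibroblast-like class holds 11 clusters, and the arms filled them unequally. A cluster led by Col1a1 (cluster 0) held 35.1% of control and 5.22% of expanded fibroblast-like cells. Clusters 9 and 32, led by Tnc and Saa3 and by Mmp3 and Tnc, held 7.09% of control and 34.4% of expanded cells, and in expanded skin 84.95% of the class's 2279 Cemip UMIs. With the libraries of an arm pooled, Has1 and Tnfaip6 were lower in expanded skin in 11 of 11 clusters, Cemip was higher in 11 of 11 and Has2 was lower in 9 of 11. In the 6 clusters with enough cells for a test across libraries, Has1 was called lower in clusters 8, 9, 10 and 19 (log2 differences from -0.83 to -0.77; 16.8%, 6.91%, 2.75% and 14.5% of all genes were called there). Cemip was called higher in 2 of 5, namely in cluster 9, from 12.9 ± 8.64 to 128 ± 86.8 CPM (SD, n = 5 each, edgeR adjusted p 0.00288), and in cluster 19, where no control library had a UMI; in cluster 10 its log2 difference was 0.47 (edgeR adjusted p 0.647). Has2 was called lower in 1 of 6, cluster 8, and had a log2 difference of 0.35 in cluster 10 (edgeR adjusted p 0.497). Tnfaip6 was called lower in 1 of 6, cluster 9 (log2 difference -0.63), and its differences in clusters 19 and 29 were -0.10 and 0.19 (edgeR adjusted p 0.756 and 0.834). No member was called in clusters 11 and 29 (0.3% and 5.78% of all genes). Vcan, not called in the class as a whole, was called lower in cluster 9, from 646 ± 101 to 432 ± 30.9 CPM (SD, n = 5 each, edgeR adjusted p 0.00806). The cluster tests were chosen after seeing that the clusters take different shares of the arms; the clustering did not use the hyaluronan genes.

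The promoters of 3 of the 4 members called in fibroblast-like cells are shown for what they hold at the start of genes that moved in opposite directions. They are RefSeq windows around the transcript start, build GRCm38.p6 (the assembly of mm10), and no window was matched for Has2, Has3 or Lyve1. Each was searched on both strands for AP-1 (TGANTCA), TEAD (GGAATG), CRE (TGACGTCA), NF-kB and the SRF CArG box, and matched letters are in capitals. Across 32851 RefSeq promoter windows of the same length, 7.81% hold the AP-1 motif, 14.7% TEAD, 1.79% CRE, 8.46% NF-kB and 1.63% the CArG box.
Has1, chr17:17855139-17855438, minus strand: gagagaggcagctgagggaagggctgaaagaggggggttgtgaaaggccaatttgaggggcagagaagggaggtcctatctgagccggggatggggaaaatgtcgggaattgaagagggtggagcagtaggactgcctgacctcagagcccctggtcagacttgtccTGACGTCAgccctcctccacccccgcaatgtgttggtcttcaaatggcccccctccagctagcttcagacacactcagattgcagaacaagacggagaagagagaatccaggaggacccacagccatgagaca
Tnfaip6, chr2:52037863-52038162, plus strand: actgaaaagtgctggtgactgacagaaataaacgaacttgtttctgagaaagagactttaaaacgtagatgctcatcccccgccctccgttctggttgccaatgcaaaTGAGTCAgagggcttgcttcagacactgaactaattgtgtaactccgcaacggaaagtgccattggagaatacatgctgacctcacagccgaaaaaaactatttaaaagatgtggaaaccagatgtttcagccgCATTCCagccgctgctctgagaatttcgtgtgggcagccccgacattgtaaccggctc
Cemip, chr7:84086456-84086755, minus strand: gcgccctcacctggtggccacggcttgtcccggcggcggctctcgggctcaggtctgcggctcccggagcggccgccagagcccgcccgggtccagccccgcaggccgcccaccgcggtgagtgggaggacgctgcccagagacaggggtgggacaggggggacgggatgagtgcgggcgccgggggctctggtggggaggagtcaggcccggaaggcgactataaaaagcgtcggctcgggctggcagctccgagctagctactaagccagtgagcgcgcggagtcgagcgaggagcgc

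The Has1 window has 1 CRE at -83 from the transcript start. The Tnfaip6 window has 1 AP-1 motif at -142 and 1 TEAD motif, on the other strand, at -8. The Cemip window has no match to the motifs searched, and its GC content was 73.7%, against 57.0% for Has1 and 47.0% for Tnfaip6.

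The enzymes that supply the sugar precursors were lower in expanded fibroblast-like cells too. Of 7 substrate genes tested, 6 were called lower and 1 higher, with a median log2 difference of -0.99, beside 30.3% of all genes called and a median of 0.02 over all genes. Uap1, which makes UDP-N-acetylglucosamine, averaged 549.6 ± 88.5 CPM in control and 193 ± 42.01 CPM in expanded skin (SD, n = 5 each), a log2 difference of -1.74 (SE 0.19, edgeR adjusted p 0.000266). Ugdh, which makes UDP-glucuronic acid, averaged 713 ± 126 and 329.55 ± 65.0 CPM (log2 difference -1.34, SE 0.17, edgeR adjusted p 0.000482). Gfpt2 and Gfpt1, which commit fructose 6-phosphate to amino sugars, had log2 differences of -1.35 and -0.99, Ugp2 of -0.77 and Pgm3 of -0.66. Gnpnat1, the acetyltransferase of the same route, was the exception, with a log2 difference of 0.70 (17.8 ± 4.09 and 33.5 ± 7.22 CPM). The arms did not overlap for 6 of these genes and overlapped for Pgm3. The share of all genes without overlap was not counted, so this describes these genes alone.

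The other hyaluronan genes of fibroblast-like cells went in both directions. Among breakdown genes, the lysosomal Hexa and Gusb were called lower (Hexa from 294 ± 46.5 to 109 ± 29.3 CPM, log2 difference -1.66), and Cemip2, a cell-surface hyaluronidase, was not called. Among 7 tested of 15 listed matrix partners, Hapln1, a link protein that ties versican to hyaluronan, was called higher (5.22 ± 1.80 to 15.9 ± 3.61 CPM, log2 difference 1.42) and Hapln4 lower (1.73 ± 0.69 to 0.61 ± 0.40 CPM). Of 8 tested among 9 listed receptors and binding proteins, C1qbp was called higher (49.0 ± 10.3 to 100.3 ± 7.00 CPM) and Tlr2 and Tlr4 lower. Abcc5, a transporter linked to hyaluronan export, was called lower with a log2 difference of -0.36. Each mean is over 5 libraries an arm.

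**Figure D3:**
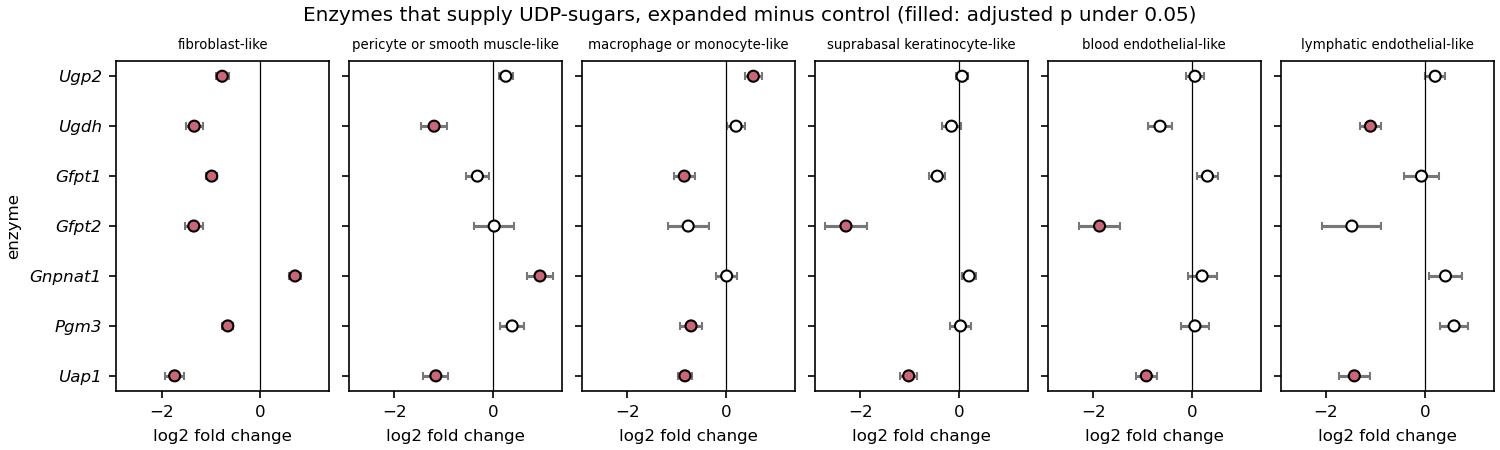
Log2 difference, expanded minus control, with its SE for 7 genes of sugar-precursor supply in 6 cell classes; filled points have an edgeR adjusted p under 0.05. In fibroblast-like cells 6 genes are filled below 0 and Gnpnat1 is filled above 0, while Uap1 is filled below 0 in each of the 6 classes.

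Outside fibroblast-like cells, 77 tests of substrate genes in 12 classes gave 3 higher and 13 lower calls. Uap1 was called lower in 6 of 12 classes: macrophage-, dendritic-, suprabasal keratinocyte-, pericyte-, blood endothelial- and lymphatic endothelial-like cells. In that order, 21.5%, 14.5%, 19.4%, 15.7%, 10.8% and 10.2% of all genes were called in these classes. In the remaining classes the share ran from 0.167% to 4.14%, and the counts of calls here are a description beside these shares. Gfpt2 was called lower in 3 of 7 classes, Ugdh in 2 of 12, and Gfpt1 and Pgm3 in macrophage-like cells alone. The higher calls were Gnpnat1 in dendritic- and pericyte-like cells and Ugp2 in macrophage-like cells. Among the other hyaluronan genes, C1qbp was called higher in 5 of 12 classes, Hexa lower in 7 of 12, and Itih5, a heavy chain of the inter-alpha-inhibitor family, lower in 4 of 6. Abcc5 was called lower in 2 of 10 classes, Cemip2 lower in macrophage-like cells, Tlr2 higher in dendritic- and lower in pericyte-like cells, and Hmmr, a hyaluronan-binding protein of dividing cells, higher in blood endothelial-like cells. Layn, Hapln3, Ptx3 and Susd5 were each called lower in 1 class.

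Has1 and Tnfaip6 were also called lower in classes that are not their main source. Has1 was called in basal keratinocyte-, suprabasal keratinocyte-, dendritic-, lymphatic endothelial- and macrophage-like cells, and Tnfaip6 in suprabasal keratinocyte-, dendritic-, Langerhans-, lymphatic endothelial- and macrophage-like cells. The levels were low: in macrophage-like cells Has1 averaged 16.5 ± 12.6 and 2.82 ± 2.79 CPM and Tnfaip6 41.2 ± 27.8 and 15.2 ± 3.56 CPM (SD, n = 5 each). Transcripts used here as a mark of fibroblast RNA moved with them. The summed level of Col1a1, Col1a2, Col3a1, Sparc and Dcn in macrophage-like cells ran from 382 to 4919 CPM in control and from 40.2 to 549.8 CPM in expanded libraries, and 5 of 5 were called lower there.

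Scaling the fibroblast-like counts to those 5 transcripts gives the UMIs each class would hold if fibroblast RNA were their source. A ratio of 1 is what fibroblast RNA alone would give in a class that makes none of the 5 transcripts itself. A class that makes some of them would fall below 1. In blood endothelial-like cells 1 of the 5 was called lower, and whether a class makes any of them was not tested. In 7 immune and endothelial classes (macrophage-, dendritic-, Langerhans-, T cell-, NK or innate lymphoid-, blood endothelial- and lymphatic endothelial-like cells) the counted Has1 UMIs were 0.605 to 1.61 times that number in control and 0.39 to 2.03 times in expanded libraries, and the counted Tnfaip6 UMIs 0.643 to 1.39 and 0.22 to 2.04 times. The lowest ratios of both genes were in expanded blood endothelial-like cells. Neutrophil-like cells, outside these 7, held 2.51 times (Has1, 14 UMIs) and 3.73 times (Tnfaip6, 154 UMIs) in expanded libraries. Has1 in basal keratinocyte-like cells stood at 1.64 and 1.37 times. By contrast, Has2 in basal keratinocyte-like cells was counted at 47.6 (control) and 40.6 times (expanded) the fibroblast ratio, in suprabasal keratinocyte-like cells at 11.9 and 108 times, and in hair follicle keratinocyte-like cells at 17.7 and 3.36 times. Has1 in expanded suprabasal keratinocyte-like cells was at 5.07 times, and Tnfaip6 in dermal papilla-like cells at 12.3 and 7.15 times.

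**Figure D4:**
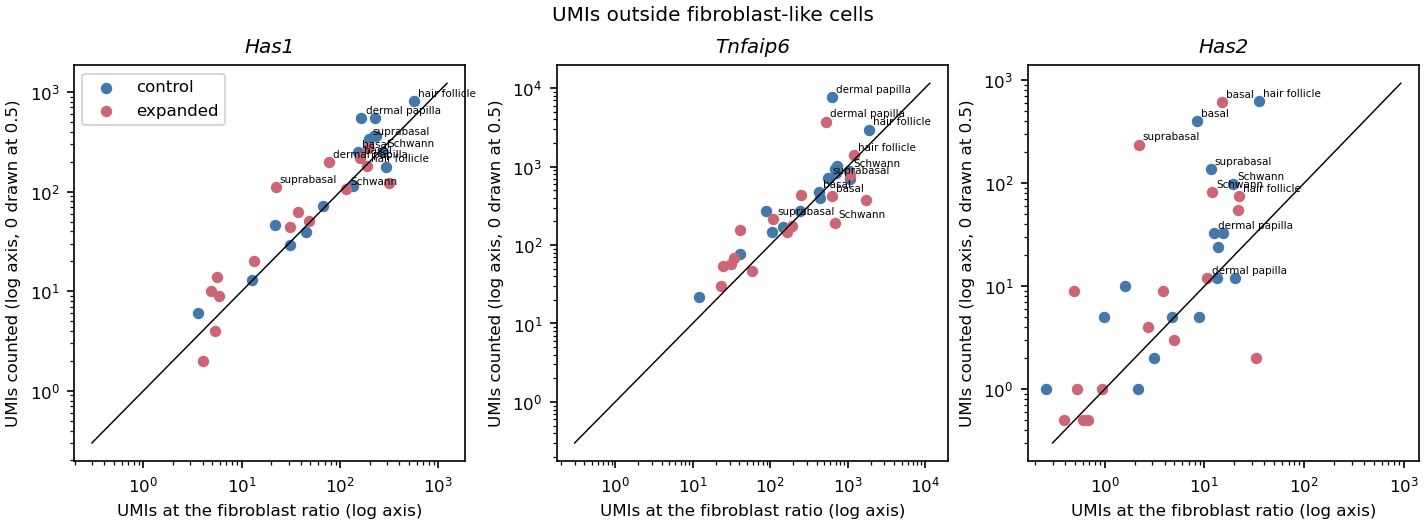
UMIs counted outside fibroblast-like cells (vertical axis) against the UMIs that fibroblast RNA would give (horizontal axis) for Has1, Tnfaip6 and Has2, on log axes with counts of 0 drawn at 0.5; each point is a class in an arm and the line marks equal numbers. For Has1 and Tnfaip6 the 7 immune and endothelial classes lie on both sides of the line, from 0.22 to 2.04 times its value, while Has2 in the keratinocyte classes lies far above it.

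In the epidermal classes Has2 and Has3 were counted well above the fibroblast ratio, and Has2 was not called between the arms over all days in the basal or the suprabasal class; Has3 was too low for a test in the basal class and was not called in the suprabasal one. The basal class also holds hair follicle markers, as given above, and its values are of the whole class. In basal keratinocyte-like cells Has2 had 29.2, 82.3, 7.53, 15.9 and 86.9 CPM in control libraries. Expanded libraries stood at 11.6, 18.8, 54.4, 27.3 and 81.3 CPM. These values rest on 200, 274, 21, 187 and 156 control and 418, 835, 68, 78 and 213 expanded cells. The arms overlapped throughout, and the means were 44.4 ± 37.6 and 38.7 ± 28.8 CPM (SD, n = 5 each, edgeR adjusted p 0.545). Suprabasal keratinocyte-like cells averaged 10.3 ± 8.40 and 11.7 ± 8.46 CPM (edgeR adjusted p 0.633). Hair follicle keratinocyte-like cells, which were not tested, had 111, 122, 11.6 and 44.4 CPM in the 4 control libraries with 20 or more of them and 6.49, 34.7 and 22.7 CPM in 3 expanded ones. Those libraries held 78, 144, 37 and 155 control and 24, 25 and 50 expanded cells of the class. Of the Has3 UMIs of the control arm, hair follicle keratinocyte-like cells held 29.5%, fibroblast-like cells 25.1% and suprabasal keratinocyte-like cells 22.4%; of those of the expanded arm, suprabasal keratinocyte-like cells held 62.2%. Suprabasal keratinocyte-like cells had 41 Has3 UMIs in control and 168 in expanded libraries, where fibroblast RNA would give 0.101 and 0.0534. Their Has3 levels were 4.49 ± 4.16 and 7.16 ± 3.64 CPM (edgeR adjusted p 0.293).

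In basal keratinocyte-like cells 1 of 9 tested members was called (1.35% of all genes), namely Has1 from 29.01 ± 18.5 to 8.59 ± 5.48 CPM (SD, n = 5 each, edgeR adjusted p 0.0494); the fibroblast transcripts beside it summed to 619.9 to 10980 CPM in control and 167 to 3325 CPM in expanded libraries, and 0 of 5 were called. This Has1 call was lost without any 1 of 8 of the 10 libraries and at 5% mitochondrial UMIs. With cells thinned to 2000 UMIs, no member was called in this class. In the main fit Tnfaip6 missed the threshold (edgeR adjusted p 0.0541), and it passed with the pair of day and round as a block (edgeR adjusted p 0.0344). In suprabasal keratinocyte-like cells 3 of 9 were called (19.4% of all genes): Has1, Tnfaip6 and Hyal1. Fibroblast transcripts were called lower in 5 of 5 there, summing to 433 to 8294 CPM in control and 24.5 to 231 CPM in expanded libraries. Hyal1 (ENSMUSG00000010051, chr9:107576927-107581710, plus strand) sits beside Hyal2 on the chromosome. Its control levels in that class were 13.3, 23.6, 15.5, 16.3 and 17.0 CPM. The expanded levels were 13.4, 8.22, 12.3, 9.17 and 9.12 CPM. Only the first day 1 pair brought the arms into overlap, and the log2 difference was -0.85 (SE 0.22, edgeR adjusted p 0.0175). Sebaceous gland markers were called lower in 6 of 7 tested in this class, summing to 421.5 to 875.6 CPM in control and 244.7 to 584 CPM in expanded libraries. Cells that a finer clustering put into an unnamed cluster with 7 of 8 sebaceous markers (cluster 26 at resolution 2) were 30.1% of the class in control and 18.6% in expanded skin, and held 53.2% and 28.6% of its Hyal1 UMIs. With libraries pooled, Hyal1 in those cells stood at 25.6 and 14.3 CPM. In the other main clusters of the class it stood at 12.1 and 8.85 CPM (cluster 15) and 14.9 and 9.83 CPM (cluster 38). Cluster 15, named basal keratinocyte-like at that resolution, held 43.0% of the class in control and 62.5% in expanded skin. Cluster 38, named suprabasal keratinocyte-like, held 26.2% and 18.7%. The class is therefore not taken for suprabasal cells alone. The part of this make-up in its differences, for Hyal1 and the other members, was not tested. The Hyal1 call was lost without any 1 of 4 libraries, the pairs of day 4 and day 1 round 2. Hyal1 overlaps Naa80 and Hyal3 on the same strand, so its counts are uncertain.

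Macrophage-like cells showed opposite differences in Vcan and Lyve1. Of 7 members tested 4 were called, 1 higher and 3 lower, beside 21.5% of all genes in this class (9.28% higher, 12.2% lower). Vcan (ENSMUSG00000021614, chr13:89655312-89742509, minus strand) stood at 38.6, 72.4, 51.6, 374.1 and 60.7 CPM in control libraries. The expanded libraries had 907, 993.5, 899, 1233 and 429.9 CPM. The arms did not overlap, and 1 control library, day 2 round 2, was far above the other 4. The means were 119 ± 143 and 892 ± 292 CPM (SD, n = 5 each), a log2 difference of 3.02 (SE 0.49, edgeR adjusted p 0.00372).

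Lyve1 (ENSMUSG00000030787, chr7:110850607-110863239, minus strand) encodes a hyaluronan receptor of lymphatic endothelium that also marks a set of resident macrophages around vessels. In macrophage-like cells it stood at 20.3, 8.47, 25.5, 13.4 and 15.3 CPM in control libraries. Expanded libraries stood at 8.87, 3.64, 3.38, 0.214 and 0 CPM. The expanded library was the lower one in each pair, and the arms overlapped only through the first expanded day 1 library. The means were 16.6 ± 6.53 and 3.22 ± 3.59 CPM (SD, n = 5 each), a log2 difference of -2.85 (SE 0.70, edgeR adjusted p 0.0168). The 8 lymphatic markers in this class summed to 45.05 to 247.5 CPM in control and 102.5 to 574 CPM in expanded libraries. Hyal1, Hyal2 and Cd44 were not called in macrophage-like cells.

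The make-up of the macrophage-like class moved with both genes. Cluster 1, led by Pf4, Chil3 and Msr1, held 5.62%, 6.54%, 5.49%, 56.5% and 21.9% of the class in control libraries and 41.2%, 84.3%, 99.1%, 96.5% and 92.8% in expanded ones; the control library with the high Vcan level is the one at 56.5%. A list of 8 inflammatory monocyte genes was called higher in 8 of 8, summing to 504 to 2380.0 CPM in control and 2374 to 7092 CPM in expanded libraries. A list of 9 resident macrophage genes was called lower in 7 of 9, summing to 9171 to 24420.0 and 6004 to 16650.0 CPM. Within cluster 1, Vcan was still called higher, from 522 ± 234 CPM (SD, n = 4) to 1151 ± 555 CPM (SD, n = 5), with a log2 difference of 1.03 (edgeR adjusted p 0.0393; 1.32% of all genes were called there). Lyve1 was too low for a test in cluster 1, at 0 in 4 control libraries and 1.43 ± 1.96 CPM in 5 expanded ones. Has1 and Tnfaip6, lower in the class, were not called in cluster 1 (edgeR adjusted p 0.325 and 0.0511). In bulk sums of a class, fewer cells of a kind and less RNA per cell cannot be told apart.

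Vcan was also called higher in pericyte- and melanocyte-like cells. In pericyte-like cells 2 of 5 tested members were called, Vcan and Cd44, beside 15.7% of all genes. Vcan went from 12.3, 22.9, 24.3, 14.15 and 10.5 CPM in control to 171, 27.997, 68.5, 41.9 and 40.5 CPM in expanded libraries, without overlap (log2 difference 1.95, SE 0.43, edgeR adjusted p 0.0103). The inflammatory monocyte list summed to 189 to 389.5 CPM in control and 369.8 to 764 CPM in expanded pericyte-like cells; its part in the Vcan difference was not tested, and Vcan was counted at 16.8 (control) and 7.11 times (expanded) the ratio of macrophage-like RNA. In melanocyte-like cells 1 of 3 was called (1.48% of all genes): Vcan averaged 58.6 ± 21.7 and 189.7 ± 147 CPM (SD, n = 4 each, log2 difference 1.67, edgeR adjusted p 0.00704), at 57.3 and 74.1 times the macrophage ratio. In dermal papilla-like cells, which were not tested, Vcan ran lower in the expanded libraries: 1684, 302 and 885 CPM in 3 control libraries and 161, 153, 221 and 81.9 CPM in 4 expanded ones.

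**Figure D5:**
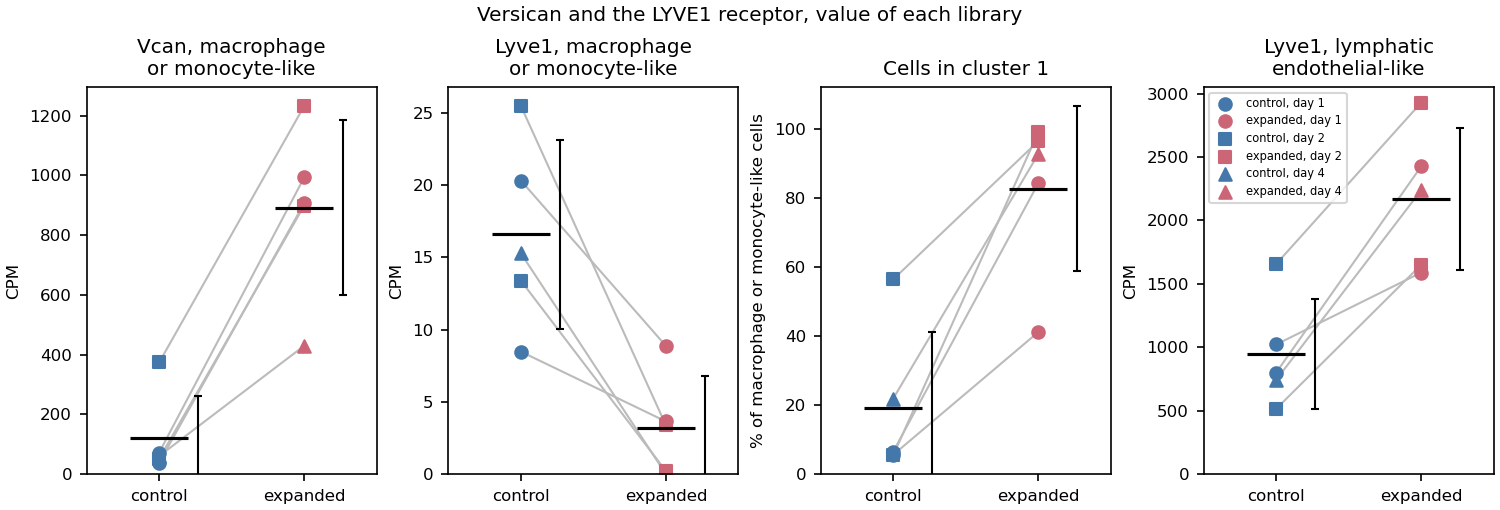
Vcan and Lyve1 (CPM) in macrophage-like cells, the percentage of macrophage-like cells in cluster 1, and Lyve1 (CPM) in lymphatic endothelial-like cells, for each library; control and expanded libraries of the same day and round are joined, black lines are means and bars SD over 5 libraries, cut at 0. The Vcan arms do not overlap, and the high control library for Vcan is also the high control library for cluster 1.

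Lymphatic endothelial-like cells had more Lyve1 and Hyal2 transcripts in expanded skin. Of 5 members tested 4 were called, 2 higher and 2 lower, beside 10.2% of all genes (4.98% higher, 5.22% lower). Lyve1 stood at 801, 1022, 515, 1657 and 744.5 CPM in control libraries. The expanded libraries had 2427, 1589.9, 1651, 2929.7 and 2238 CPM. The expanded library was higher in each pair, and only the control library of day 2 round 2 reached the expanded range. The means were 948 ± 435 and 2167 ± 560 CPM (SD, n = 5 each), a log2 difference of 1.10 (SE 0.25, edgeR adjusted p 0.0129). The 8 lymphatic markers that named the class, among which Lyve1 is not counted, gave 1 higher and 2 lower calls, and their sum ran from 9888 to 26270.0 CPM in control and from 7961 to 17470.0 CPM in expanded libraries.

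Hyal2 (ENSMUSG00000010047, chr9:107567945-107572779, plus strand) acts on large chains. Its lymphatic endothelial-like levels were 42.5, 18.9, 28.6, 33.8 and 41.6 CPM in control libraries. In expanded libraries they were 49.0, 46.7, 96.4, 102 and 82.9 CPM. The arms did not overlap, and both day 1 expanded libraries were the lowest of their arm. The log2 difference was 1.04 (SE 0.23, edgeR adjusted p 0.0108). The Lyve1 call was lost without either day 4 library, and the Hyal2 call without the control library of day 2 round 2 or the expanded library of day 4. The 2 lower members were Has1 and Tnfaip6 (log2 differences -2.02 and -2.14), beside fibroblast transcripts that summed to 1336 to 16440.0 CPM in control and 357 to 11970.0 CPM in expanded libraries, with 4 of 5 called lower. The Has1 call was lost without any 1 of 8 of the 10 libraries (log2 differences from -2.98 to -1.18 over all 10) and with DESeq2's Wald test (adjusted p 0.169), and the Tnfaip6 call without either day 4 library.

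Blood endothelial-like cells expressed Hyal2 at a similar level, 49.4 ± 9.68 CPM in control and 69.3 ± 17.9 CPM in expanded libraries (SD, n = 5 each), and this difference was not called (edgeR adjusted p 0.185). Lyve1 was the 1 of 7 tested members called there (10.8% of all genes). It had 0, 0, 0, 0.628 and 2.42 CPM in control libraries. Expanded libraries stood at 5.46, 7.82, 4.45, 5.67 and 23.8 CPM. No values overlapped, at levels far below those of lymphatic endothelial-like cells (log2 difference 3.70, SE 0.50, edgeR adjusted p 0.00178). The lymphatic markers in this class summed to 14.9 to 52.8 CPM in control and 27.6 to 43.7 CPM in expanded libraries, and Lyve1 was counted at 0.427 times (9 UMIs) and 1.96 times (136 UMIs) the ratio of lymphatic endothelial-like RNA; the part of such RNA in the difference was not tested.

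Cd44 (ENSMUSG00000005087, chr2:102811141-102901665, minus strand), the main hyaluronan receptor of leukocytes, was highest in neutrophil-like cells, at 1712 ± 277 CPM (SD, n = 3) in control and 1658 ± 203 CPM (SD, n = 4) in expanded libraries. Dendritic-like (1307 ± 311 CPM, SD, n = 5) and macrophage-like cells (1292 ± 250 CPM, SD, n = 5) followed in control skin and did not differ beyond their spread. T cell-like cells were at 922 ± 122 CPM, and endothelial classes were lowest, at 12.6 ± 6.79 CPM for blood and 15.2 ± 14.9 CPM for lymphatic endothelial-like cells.

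Langerhans-like cells had less Cd44 in expanded skin. This class is 1 cluster with 7 of 7 Langerhans markers, Cd207 and Epcam among them, but Ccl22, Ccr7 and Il4i1, genes of migrating dendritic cells in general, are also among its leading genes, so it is not taken for the resident Langerhans cells of the epidermis alone. Control libraries stood at 713, 819.96, 588, 491 and 509 CPM. The expanded libraries had 365, 464, 289.9, 331 and 150.4 CPM. The arms did not overlap, and the day 4 expanded library was the lowest of all. The means were 624 ± 140 and 320.1 ± 115 CPM (SD, n = 5 each), a log2 difference of -1.27 (SE 0.19, edgeR adjusted p 0.00795). A finer clustering divided the class into a dendritic-like cluster with Xcr1 and Clec9a (cluster 41 at resolution 2; 66.8% of control and 32.7% of expanded cells) and a Langerhans-like cluster led by Ccl22 and Ccr7 (cluster 42; 32.3% and 65.0%). In cluster 41 Cd44 ran from 469 to 807 CPM in 5 control and from 279.7 to 491 CPM in 3 expanded libraries with 20 or more cells. In cluster 42 it ran from 509 to 856 CPM in 3 control and from 104 to 441 CPM in 4 expanded libraries. The arms overlapped in cluster 41 and not in cluster 42, and neither was tested. Cd44 and Tnfaip6 (34.4 ± 18.5 and 6.39 ± 2.50 CPM, beside fibroblast transcripts called lower in 5 of 5) were the 2 of 5 members called, beside 4.14% of all genes.

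Dendritic-like cells had the same direction for Cd44, with 1613, 1657, 1223, 1017 and 1026 CPM in control and 1058, 1623, 777.5, 727 and 748 CPM in expanded libraries. The expanded library was lower in 5 of 5 pairs, and the arms overlapped because day 1 stood highest in both (log2 difference -0.65, SE 0.15, edgeR adjusted p 0.0167). In that class 3 of 5 members were called, with 14.5% of all genes. In pericyte-like cells Cd44 was higher instead, at 104 ± 31.1 and 167 ± 35.9 CPM (SD, n = 5 each, log2 difference 0.61, edgeR adjusted p 0.0342). T cell-like cells averaged 922 ± 122 and 663 ± 122 CPM (log2 difference -0.59), which was not called (edgeR adjusted p 0.119); with the pair of day and round as a block it was (edgeR adjusted p 0.0243).

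With day and arm as terms, edgeR called no member in T cell-, NK or innate lymphoid- or Schwann-like cells, where 0.167%, 0.461% and 0.356% of all genes were called. At an unadjusted p under 0.05 (edgeR) there were 3 of 4, 1 of 2 and 2 of 5 members, beside 968 of 8963, 606 of 5862 and 777 of 7594 genes. DESeq2's Wald test called 2, 0 and 0 members. With the pair of day and round as a block edgeR called Cd44 in T cell-like cells and Tnfaip6 in Schwann-like cells (log2 difference -2.31, edgeR adjusted p 0.0234). Without a gene filter it called 4, 1 and 2 members. The shares of all genes called under these alternatives are not given here, so the counts describe the members alone.

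Within single days, 11 classes gave 71 member tests a day. On day 1 there were 7 calls, on day 2 there were 3 and on day 4 there was 1. In fibroblast-like cells Has1 was called on day 1 (log2 difference -1.27, edgeR adjusted p 0.0374; 5.49% of all genes) and day 2 (-1.48, adjusted p 0.0282; 3.57% of all genes), and the day 4 difference of -2.40 was not called (adjusted p 0.0795; 0.0737% of all genes). Cemip had log2 differences of 3.16 (adjusted p 0.0314), 5.31 (adjusted p 0.0151) and 6.50 (adjusted p 0.0672) on the 3 days. Day 4 has 1 library an arm and takes its spread from the other days.

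The other day calls were in 4 classes. Suprabasal keratinocyte-like cells had Has1 (-3.07), Has2 (-1.49) and Tnfaip6 (-3.48) called lower on day 1, beside 8.27% of all genes. Has1 was called lower in basal keratinocyte-like cells on day 1 (-2.24; 0.49% of all genes) and in lymphatic endothelial-like cells on day 4, where the expanded library had 0 UMIs (0.211% of all genes). In blood endothelial-like cells Lyve1 was called higher on day 1, with 0 UMIs in both control libraries (0.686% of all genes), and Tnfaip6 lower on day 2 (-5.46; 1.02% of all genes).

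The test of the difference between days called 0 of 71 member tests for each pair of days (edgeR), and at most 0.0295% of all genes in any class. At an unadjusted p under 0.05 there were 12 for day 2 against day 1, 14 for day 4 against day 1 and 7 for day 4 against day 2. In that order, 518, 458 and 306 of 14932 genes passed in fibroblast-like cells, with 1, 2 and 1 of 10 members. In basal keratinocyte-like cells 725, 489 and 355 of 11433 genes passed, with 3, 2 and 1 of 9 members. The share of all genes over the classes together is not given here, so the summed counts describe the members alone. The Cemip difference in fibroblast-like cells was 3.34 larger on day 4 than on day 1 on the log2 scale, with an unadjusted p of 0.0122 that did not pass the adjustment.

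Summed over all cells of a library, 6 of 10 members were called, beside 25.2% of all genes. Has1 averaged 432 ± 126 and 92.2 ± 53.7 CPM, Has2 36.3 ± 13.03 and 14.5 ± 5.22 CPM, and Tnfaip6 1477 ± 296 and 478 ± 146 CPM, all lower in expanded skin (SD, n = 5 each). Cemip (1.05 ± 0.50 and 17.3 ± 13.6 CPM), Hyal2 (6.42 ± 1.502 and 12.3 ± 2.44 CPM) and Lyve1 (12.9 ± 11.7 and 57.6 ± 42.1 CPM) were higher. Vcan and Cd44 were not called in these sums (edgeR adjusted p 0.675 and 0.892). These sums mix the level in a cell with the share of cells of each class: fibroblast-like cells were 13359 of 28453 control and 3776 of 17042 expanded cells. On day 2 alone Cemip was called in these sums (log2 difference 4.35; 1.44% of all genes).

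Across 18 classes, the genes most like each member in control level were found by Pearson correlation of log2(CPM + 1), as a description over classes that share libraries. Has1 was most like Col5a2 (r = 0.96), Thbs2 and Col6a1, which encode matrix proteins. Tnfaip6 was most like Olfml3 (r = 0.94), Prrx1 and Gfpt2, and Cemip was most like Spock1 (r = 0.93), Notum and Crym. Has2 was most like Tmem107 (r = 0.91), Fzd1 and Lrig3, Hyal2 like Als2cl (r = 0.92), Cd44 like Tank (r = 0.89) and Has3 like Wnt3 (r = 0.90). Lyve1 (1810008I18Rik, r = 0.85), Hyal1 (Fam234a, r = 0.83) and Vcan (Lpgat1, r = 0.82) had the weakest likeness.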

How the data were processed

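The 10 mRNA libraries were made with the 10x Genomics 3′ v3.1 chemistry, per the labels' protocols, and Cell Ranger 6.1.2 with the build mm10 is named in the submitters' processing notes. The values are whole UMI counts per gene and cell barcode, as deposited by the authors in filtered matrices; whether counting used the strand is not given in the sources used here, and Has2os, Chtf8 and unnamed transcripts overlap Has2, Has3, Hyal1, Hyal2, Vcan and Cd44 on the other strand. The 8 hashing samples are lists of the antibodies, and the antibody counts stand in the mRNA matrices. The members and gene lists were chosen with earlier results of these data known.

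Barcodes needed 200 genes, 500 UMIs and a mitochondrial share of at most 10% (47251 did), and 1756 doublets called by Scrublet or by 2 hashing antibodies (Seurat 5.3.0 HTODemux, quantile 0.99) were removed. Cells were clustered with scanpy 1.11.5 (30 principal components, 15 neighbours, leidenalg 0.10.2, resolution 1) under Python 3.11.15, without the members among the variable genes, and clusters were named from marker lists. UMI counts of a class were added up within each library. Classes with 20 cells in at least 4 libraries of each arm were tested with edgeR 4.0.16 under R 4.3.3 (filterByExpr, TMM scaling, day and arm as terms), on all genes; the fits were tested on simulated data. Fold changes follow TMM scaling, while levels are plain CPM. Genes with full values are members called in a class or at 10 CPM or more there; other hyaluronan genes are named where called, except 1 that is not reported here. Alternatives were DESeq2 1.42.0, no gene filter, the pair of day and round as a block, thinning to 2000 UMIs, 5% mitochondrial UMIs, Leiden resolution 2, mice as replicates, leaving out each library, and tests by cluster. The labels pair libraries by a shared day and round, and round 1 deviations of the arms correlated (0.558 on day 1, 0.335 on day 2 over all cells). The p-values measure the spread between libraries of pooled mice. A level near 1 UMI in a class is unreliable.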

Additional observations from a re-analysis of the deposited data

Results flagged for a closer look

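Of 50 groups of 4 or 5 libraries checked, 5 held a value far from the others of its arm for its range; chance alone gives about 1 in 20 groups, and each arm spans 3 days. Lyve1 in blood endothelial-like cells was highest on day 4 in both arms, at 2.42 CPM in control (others 0 to 0.628) and 23.8 CPM in expanded skin (others 4.45 to 7.82). Vcan in macrophage-like cells reached 374.1 CPM in 1 control library, day 2 round 2 (others 38.6 to 72.4). Vcan in melanocyte-like cells stood at 90.9 CPM in the control library of day 4 (others 44.4 to 49.9). Vcan in pericyte-like cells stood at 171 CPM in the expanded library of day 1 round 1 (others 27.997 to 68.5).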

How the results depend on the processing

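In 509 planned fits that tested a gene called in the report, 464 kept their direction and call. Another 45 kept the direction and lost the call, and 0 reversed. Fits in which the gene fell below the count filter are not among the 509, so calls lost that way are not counted. Lyve1 in blood endothelial-like cells was tested in 9 of the 10 fits that left out 1 library, and was called in those 9. In the cluster tests added after seeing the data, 9 of 26 kept the call, 15 lost it and 2 reversed (Has2 in cluster 10 at 0.35, Tnfaip6 in cluster 29 at 0.19, neither called). The cause was not tested for any change below. Member counts differed as follows. The share of all genes called in each of these fits, and in those that leave out a library, is not given here. The counts therefore describe the members alone. Without a gene filter they were 2 in basal keratinocyte-like, 5 in blood endothelial-like, 3 in melanocyte-like, 1 in NK or innate lymphoid-like, 4 in pericyte-like, 2 in Schwann-like, 4 in T cell-like and 5 in suprabasal keratinocyte-like cells. With the replicate block (pairs of day and round) they were 2 in basal keratinocyte-like cells, where Tnfaip6 was added (-1.93, edgeR adjusted p 0.0344), 1 in Schwann-like (Tnfaip6, -2.31, adjusted p 0.0234) and 1 in T cell-like cells (Cd44, -0.59, adjusted p 0.0243); it also added Vcan in dendritic-like (1.67, adjusted p 0.0405) and Lyve1 in suprabasal keratinocyte-like cells (1.27, adjusted p 0.0416). Thinned counts gave 0 in basal keratinocyte-like and 1 each in Langerhans-, pericyte-, Schwann- and T cell-like cells. Leiden resolution 2 gave 3 in basal keratinocyte-like and 2 in blood endothelial-like cells. The 5% mitochondrial limit gave 0 in basal and 5 in suprabasal keratinocyte-like cells. DESeq2 size factors gave 2 in blood endothelial-like cells, and DESeq2's Wald test 2 there and 2 in T cell-like cells. Mice as replicates gave 3 in blood endothelial-like, 1 in Langerhans-like (Tnfaip6 lost, adjusted p 0.312) and 1 in T cell-like cells.
Leaving out each library in turn gave 0 to 2 calls in basal keratinocyte-like, 0 to 2 in blood endothelial-like, 1 to 4 in dendritic-like, 4 to 5 in fibroblast-like, 2 to 3 in Langerhans-like, 0 to 4 in lymphatic endothelial-like, 4 to 4 in macrophage-like, 0 to 3 in melanocyte-like, 0 to 0 in NK or innate lymphoid-like, 1 to 2 in pericyte-like, 0 to 1 in Schwann-like, 2 to 4 in suprabasal keratinocyte-like and 0 to 1 in T cell-like cells, and 5 to 6 over all cells. Within days, over the classes and the sums of all cells, it gave 2 to 9 on day 1, 0 to 8 on day 2 and 0 to 6 on day 4, and 0 to 1, 0 to 0 and 0 to 1 for day 2 against day 1, day 4 against day 1 and day 4 against day 2. The day 2 count was 0 without either expanded day 2 library, and the day 1 count was 2 without the first control library of day 1. Vcan in macrophage-like cells was 3.73 without the control library of day 2 round 2. Has1 in basal keratinocyte-like and in lymphatic endothelial-like cells lost the call without 8 of 10 libraries, Cd44 in pericyte-like and Hyal1 in suprabasal keratinocyte-like cells without 4 of 10, and Vcan in melanocyte-like cells without 4 of 8. The 4 were for Cd44 the day 4 pair, the control library of day 2 round 2 and the expanded library of day 2 round 1; for Hyal1 the pairs of day 4 and day 1 round 2; and for Vcan those of day 4 and day 2 round 2. Cd44 in dendritic-like cells and Tnfaip6 and Lyve1 in lymphatic endothelial-like cells lost it without either day 4 library. Tnfaip6 in dendritic-like cells lost it without these or the expanded library of day 1 round 1, and Lyve1 over all cells without these or the expanded library of day 2 round 2. DESeq2's Wald test lost Has1 in lymphatic endothelial-like cells. Not run were mice as replicates in 6 classes (basal keratinocyte-, lymphatic endothelial-, melanocyte-, NK or innate lymphoid-, pericyte- and Schwann-like), Leiden resolution 2 for Langerhans- and suprabasal keratinocyte-like cells, and the thinned and 5% fits for melanocyte-like cells. Depth limits Has3, Hyal1 and Hyal2 in most classes, where few UMIs stand behind a level.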
